A study of Homo sapiens with 3 samples.

Results

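The KLF (Krüppel-like factor) transcription factors described here are 10 genes, KLF2, KLF3, KLF4, KLF5, KLF6, KLF7, KLF9, KLF10, KLF11 and KLF15, of 22395 genes that could be named on the arrays. They were chosen by symbol: a probe set was used if the platform annotation named a listed member and no other gene, and each of the 10 genes has 1 such probe set. The cells were HEK293T, an established human embryonic kidney line, stably transduced with a pCDF1 lentivirus and kept in puromycin, and all 3 groups share this vector and selection. The groups are cells with TRAF7 carrying the G536S substitution, cells with wild-type TRAF7 and cells with the empty vector, with 1 array each. The added TRAF7 came on top of the gene that these cells already carry, and the labels give no further treatment of the growing cultures.

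KLF proteins bind GC-rich and CACCC-type DNA through C2H2 zinc fingers at their C terminus, and their N-terminal parts recruit different partners. One branch, with KLF2, KLF4, KLF5, KLF6 and KLF7, mostly activates transcription and binds acetyltransferases. A second branch, with KLF3, binds the co-repressor CtBP, and another, with KLF9, KLF10 and KLF11, binds the co-repressor SIN3A. TRAF7 is an E3 ubiquitin ligase with WD40 repeats. It binds the kinase MEKK3, which in endothelium drives KLF2 and KLF4 through MEK5, ERK5 and MEF2 factors, and in meningioma TRAF7 mutations often accompany a mutation of KLF4. The comparisons ask what the levels of these factors were with either form of TRAF7 and whether the forms differed.

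With 1 array per group no test, standard error or interval can be given. A difference between arrays also holds the difference between cultures, extractions and hybridisations. Values are log2 RMA intensities, and a difference is one array's log2 value minus another's. TRAF7 itself read 7.35 with G536S, 8.11 with wild type and 5.66 with empty vector. The 2 forms were thus not matched in level, with G536S minus wild type at -0.76. A difference between them cannot be assigned to the substitution or to the TRAF7 level, and this was not tested. Of the 8 markers of the HEK293 line, 6 had a mean over the arrays at or above the median of all gene means (1.21), the level used here as a filter, and NEFM and KRT8 did not. KRT18 passed the filter only narrowly, with a mean of 1.2143 against 1.2129. Of the markers of other cells, 0 of 5 endothelial, 1 of 6 leukocyte (CD79A) and 1 of 6 fibroblast markers (COL1A1) passed the filter.

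Of the 10 KLF genes, 8 passed this filter. KLF4 and KLF15 did not, with means of 1.07 and 1.13, and the nearest member above the filter was KLF2 at 1.72. Differences near background are compressed. The largest ranges lay in KLF6, which was highest in the wild-type array, and in KLF11, which was lowest there. The range over the 3 arrays was 0.99 for KLF6 and 0.75 for KLF11, against a median of 0.30 over the 11198 genes passing the filter. The other 6 members that passed had ranges of 0.16 to 0.44.

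**Figure D1:**
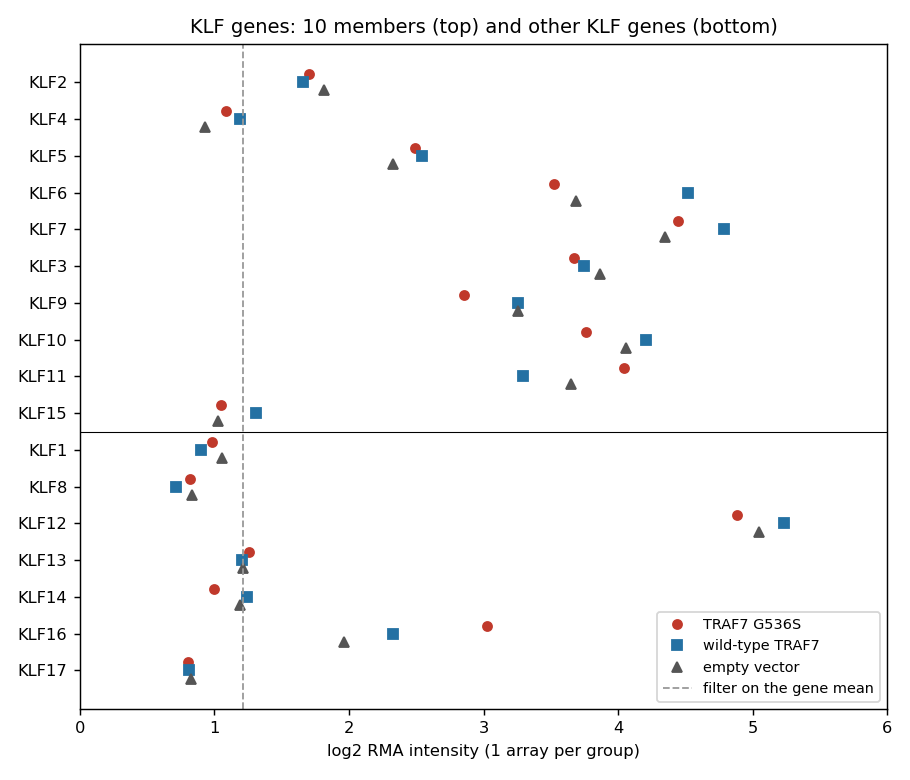
Log2 RMA intensity (x axis) of the 10 KLF members above the line and of 7 other KLF genes below it, with 1 point per array, G536S as a circle, wild type as a square and empty vector as a triangle. KLF6 stands to the right in the wild-type array (4.52) and KLF11 to the left (3.29), while KLF4 and KLF15 lie around or below the dashed filter line at 1.21; positions of different genes are not comparable as amounts of mRNA.

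KLF6, a broadly expressed activator that is induced early after many stimuli, is shown first because its difference was the largest of the members. The 250 bases before its RefSeq start (build GRCh38.p14, chr10:3785210-3785459, minus strand) are printed 5′ to 3′ with motif matches in capitals. These are 2 GC boxes (GGGCGG), which KLF and SP proteins bind, and 2 CCAAT boxes on the opposite strand, which the factor NF-Y binds.
KLF6: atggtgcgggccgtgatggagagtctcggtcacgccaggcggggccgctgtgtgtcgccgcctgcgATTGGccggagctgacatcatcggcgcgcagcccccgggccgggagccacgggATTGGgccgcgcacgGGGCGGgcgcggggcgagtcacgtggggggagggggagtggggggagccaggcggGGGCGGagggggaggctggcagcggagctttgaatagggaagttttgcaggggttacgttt

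KLF6 read 3.52 with G536S, 4.52 with wild type and 3.69 with empty vector. The wild-type array was thus the high one, and the G536S array lay slightly below the empty vector array. Within each array, KLF6 stood above 79.6% of all genes with G536S, 86.6% with wild type and 81.7% with empty vector, ranks that rescaling a whole array leaves as they are. G536S minus empty vector was -0.17, and wild type minus empty vector was 0.83 (1.78-fold). G536S minus wild type was -0.99, a 1.99-fold lower level with the mutant, and 30 of the 11198 genes had a lower difference in that comparison.

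KLF11, a SIN3A-binding repressor known as a TGF-beta inducible gene, went the opposite way. The RefSeq table used lists 2 starts for it. The 250 bases before the second (GRCh38.p14, chr2:10043971-10044220, plus strand), which lie inside the gene, are shown. They hold the only CRE (TGACGTCA, bound by CREB and ATF factors) found before a start of the 8 members with a sequence in that table. The capitals mark that CRE and 6 GC boxes on either strand.
KLF11: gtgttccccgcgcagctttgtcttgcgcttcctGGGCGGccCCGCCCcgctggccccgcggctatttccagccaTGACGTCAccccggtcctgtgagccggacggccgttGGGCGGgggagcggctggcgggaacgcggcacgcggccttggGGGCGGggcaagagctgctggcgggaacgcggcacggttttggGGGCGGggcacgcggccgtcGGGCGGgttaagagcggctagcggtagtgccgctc

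KLF11 read 4.05 with G536S, 3.29 with wild type and 3.65 with empty vector. The empty vector array stood between the arrays with the 2 forms of TRAF7. G536S minus empty vector was 0.40, wild type minus empty vector was -0.36, and G536S minus wild type was 0.75 (1.68-fold). In this last comparison 102 of the 11198 genes had a higher difference.

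KLF6 and KLF11 were the members at least 1.5-fold apart in any comparison. With wild type against the empty vector, 1 of the 8 members that passed the filter was 1.5-fold higher (KLF6), where 5.42% of all genes were, and 0 were 1.5-fold lower, where 1.79% were. With G536S against the empty vector, 0 members were 1.5-fold higher and 0 lower, where 6.07% and 2.08% of all genes were. Between G536S and wild type, 1 member was higher (KLF11), where 2.17% of genes were, and 1 lower (KLF6), where 1.81% were. At the 2-fold level, which 0.536% of genes reached in either direction between G536S and wild type, no member was called there or against the empty vector (1.2% of genes for G536S and 0.956% for wild type), although KLF6 passed it between G536S and wild type after quantile normalization (-1.02) and cyclic loess (-1.01).

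The level of a gene bears on these shares. Among the 3073 genes with a mean from 3 to 5, the band that holds KLF3, KLF6, KLF7, KLF9, KLF10 and KLF11 and was set after their values were seen, 2.28% were 1.5-fold lower and 2.41% higher with G536S than with wild type. The spread of that band (a standard deviation estimated from the median absolute deviation) was 0.24. Against the empty vector, 7.55% of the band were 1.5-fold higher with wild type and 8.10% with G536S.

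**Figure D2:**
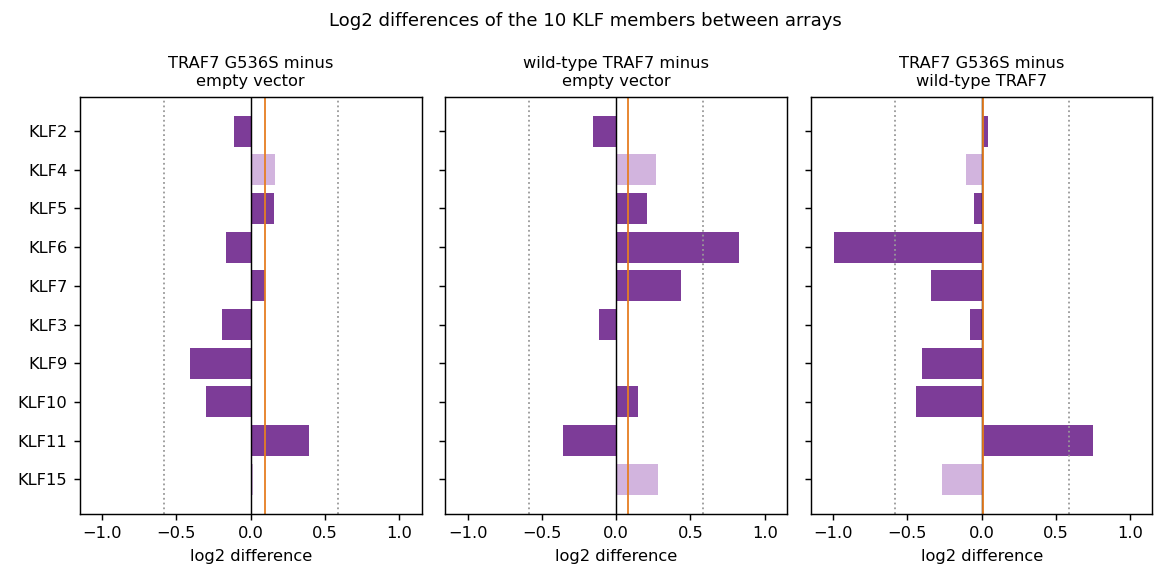
Log2 difference (x axis, bars from 0) of each member in the 3 comparisons, with pale bars for KLF4 and KLF15, which did not pass the filter, dotted lines at 1.5-fold and an orange line at the median of all genes passing the filter. KLF6 passes the dotted line with wild type minus empty vector (0.83) and with G536S minus wild type (-0.99), and KLF11 with G536S minus wild type (0.75).

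Over the 8 members, the median difference was -0.14 for G536S minus empty vector, against 0.10 over all genes passing the filter. For wild type minus empty vector it was 0.07 against 0.08, and for G536S minus wild type -0.21 against 0.01. Below 0 were 5 of 8 members for G536S minus empty vector (36.1% of all genes), 4 of 8 for wild type minus empty vector (37.4%) and 6 of 8 for G536S minus wild type (48.6%). These comparisons share arrays in pairs, so their values are not separate evidence. The order of the arrays can be set beside all genes in the same way. The wild-type array was the highest for KLF5, KLF6, KLF7 and KLF10, 4 of 8 members, and for 36.1% of all genes. It was the lowest for KLF2 and KLF11, and for 24.9% of genes. The G536S array was the lowest for KLF3, KLF6, KLF9 and KLF10, and for 24.7% of genes. The 2 forms of TRAF7 stood on opposite sides of the empty vector for KLF6, KLF10 and KLF11, 3 of 8 members, and for 25.6% of genes. Quantile normalization shifted the median of all genes by -0.13 for G536S and by -0.11 for wild type against the empty vector, and by -0.02 between the constructs, so the comparison of G536S with wild type depends least on scaling.

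The other activators differed less than KLF6. KLF7, known for its part in neuronal growth, read 4.45 with G536S, 4.79 with wild type and 4.35 with empty vector. The wild-type array was the high one, by 0.44 over the empty vector (1.35-fold), and G536S minus wild type was -0.34. G536S minus empty vector was 0.10, the same as the median gene, and its sign turned after quantile normalization (-0.06) and cyclic loess (-0.04). KLF5, a growth-promoting factor of intestinal and other epithelia, read 2.49 with G536S, 2.54 with wild type and 2.33 with empty vector, and the arrays with TRAF7 differed by -0.05.

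KLF2, a factor of quiescent endothelium that responds to fluid shear, is the member most directly tied to MEKK3 and ERK5. The 250 bases before its start (GRCh38.p14, chr19:16324576-16324825, plus strand) are shown because they hold a match to the MEF2 site, the element through which ERK5 signalling is known to reach KLF2. It was the only such match before a start of the 8 members with a sequence in the RefSeq table used. In capitals are that match, at bases -120 to -111 from the start, and 4 GC boxes, the first 2 of which adjoin.
KLF2: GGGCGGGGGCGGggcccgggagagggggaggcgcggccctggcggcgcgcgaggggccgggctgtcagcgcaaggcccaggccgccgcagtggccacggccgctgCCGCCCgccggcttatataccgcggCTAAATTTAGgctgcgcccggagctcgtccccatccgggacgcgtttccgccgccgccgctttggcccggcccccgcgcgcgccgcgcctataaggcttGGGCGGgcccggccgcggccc

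KLF2 read 1.70 with G536S, 1.66 with wild type and 1.81 with empty vector. Both arrays with TRAF7 were slightly below the empty vector, by differences of -0.11 and -0.16, and G536S minus wild type was 0.04. Its range of 0.16 was smaller than that of 8980 of the 11198 genes. By its mean, however, KLF2 stood above only 24.7% of these genes, and differences near background are compressed. After quantile normalization its differences from the empty vector were -0.24 for G536S and -0.27 for wild type. KLF4, the pluripotency and epithelial differentiation factor that is mutated beside TRAF7 in meningioma, read 1.09 with G536S, 1.19 with wild type and 0.93 with empty vector, all under the filter level. Its differences from the empty vector were 0.16 for G536S and 0.27 for wild type.

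Of the factors that bind co-repressors, KLF3 varied least. It read 3.67 with G536S, 3.75 with wild type and 3.86 with empty vector, with differences of -0.19 and -0.11 from the empty vector and -0.08 between the constructs. KLF9, which glucocorticoid and thyroid hormones induce, read 2.85 with G536S, 3.26 with wild type and 3.26 with empty vector. In the deposited values the G536S array alone was low, by -0.41 against the empty vector and by -0.40 against wild type. There the wild-type and empty vector arrays read the same to 2 decimals. For KLF9, wild type minus empty vector was -0.17 after quantile normalization and -0.12 under cyclic loess. KLF10, the TGF-beta inducible early gene that is closest to KLF11, read 3.76 with G536S, 4.21 with wild type and 4.06 with empty vector. Here too the G536S array was the low one, by -0.30 against the empty vector and -0.44 against wild type, and wild type minus empty vector was 0.15, or 0.02 after quantile normalization and 0.03 under cyclic loess. KLF10 and KLF11, close relatives, thus had opposite signs in each of the 3 comparisons.

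KLF15, a regulator of glucose and amino acid metabolism, stands outside these branches and was below the filter by its mean. It read 1.05 with G536S, 1.31 with wild type and 1.03 with empty vector. The wild-type array was the high one by 0.28 over the empty vector, and G536S minus wild type was -0.26.

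**Figure D3:**
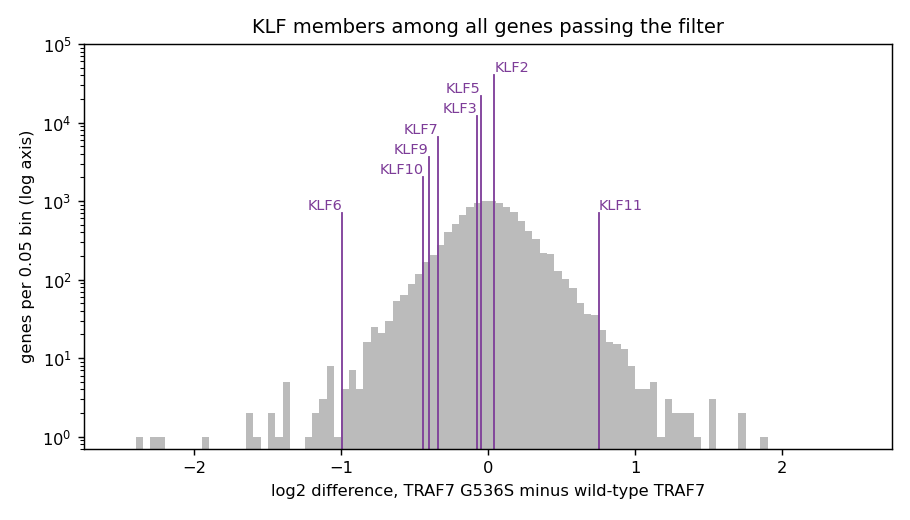
Number of genes passing the filter (y axis, log scale) by log2 difference between G536S and wild type (x axis, bins of 0.05), with a line at the value of each of the 8 KLF members that passed; the heights of the lines have no meaning. KLF6 (-0.99) lies in the far left tail, where 30 genes are lower, and KLF11 (0.75) in the right tail, where 102 are higher, while KLF2, KLF3 and KLF5 lie near 0.

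The 8 other members of the KLF family gave 7 measured genes, of which KLF12, KLF13 and KLF16 passed the filter. KLF16, a SIN3A-binding factor of the branch that holds KLF9, KLF10 and KLF11, read 3.03 with G536S, 2.33 with wild type and 1.96 with empty vector. The G536S array was the high one, with a difference of 1.07 from the empty vector and 0.70 from wild type, and wild type minus empty vector was 0.36. KLF12, a CtBP-binding repressor, read 4.88 with G536S, 5.23 with wild type and 5.04 with empty vector, and G536S minus wild type was -0.35. KLF13 read 1.25, 1.21 and 1.21 in the same order. Of the 9 SP genes, whose proteins share the zinc fingers and GC box of the KLF family, 6 passed the filter, and 0 were 1.5-fold apart in any comparison. All 6 were above 0 against the empty vector with either construct, where 63.9% of all genes were with G536S and 62.6% with wild type, and their medians were 0.21 and 0.25. After quantile normalization the medians were 0.06 for G536S, with all 6 above 0, and 0.11 for wild type, with 4 above 0. Cyclic loess gave 0.08 and 0.14 with the same counts.

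Genes of the pathways that act on KLF factors were then read from lists chosen with earlier results of these data known. Of the 11 listed genes of the MEKK3-ERK5 pathway 10 were measured, and all 10 passed the filter. MAP2K5, which encodes the kinase MEK5, read 1.55 with G536S, 2.16 with wild type and 1.52 with empty vector, so that it was higher with wild type by 0.63 and G536S minus wild type was -0.60. It was the 1 of 10 genes at least 1.5-fold apart, where 5.42% of all genes were 1.5-fold higher with wild type than with the empty vector and 1.81% lower with G536S than with wild type. After quantile normalization or cyclic loess none of the 10 was so against the empty vector. MAP3K3, which encodes MEKK3, read 3.81, 3.55 and 3.74 in the same order, and MAPK7, which encodes ERK5, read 1.84, 1.98 and 1.74. Of the 16 endothelial genes linked to KLF2 and KLF4, 11 were below the filter, NOS3 and THBD among them. ADAMTS1, a secreted protease, was the 1 gene of the 5 that passed to be 1.5-fold apart, at 3.26 with G536S, 4.62 with wild type and 3.87 with empty vector. Its differences were -0.61 for G536S minus empty vector, 0.76 for wild type minus empty vector and -1.36 for G536S minus wild type. Of all genes, 2.08% were 1.5-fold lower with G536S and 5.42% higher with wild type against the empty vector, and 1.81% lower with G536S than with wild type. Its 1.5-fold call for G536S minus empty vector was lost on centring on the array medians, and after quantile normalization 1 of the 5 genes was 1.5-fold lower with wild type than with the empty vector. KLF6 had the same order of arrays as ADAMTS1, but so had KLF10, KLF12 and DUSP1 among others. With 3 arrays few orders are possible, so a shared order does not link the genes.

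Of the 12 co-regulators, all passed the filter. HDAC2, a deacetylase of the SIN3 complex, was 1.5-fold higher with wild type than with the empty vector (0.59), and WDR5, a subunit of histone methyltransferase complexes, with G536S (0.64), where 5.42% and 6.07% of all genes were. With the other construct HDAC2 differed by 0.58 (G536S), just under that level, and WDR5 by 0.36 (wild type). Neither was 1.5-fold apart after quantile normalization or cyclic loess, while centring on the array medians put 3 of the 12 genes at that level with G536S. SIN3A read 6.67 with G536S, 6.78 with wild type and 6.79 with empty vector, and CTBP1 read 2.16, 2.19 and 2.17. WWP1, a ubiquitin ligase that acts on KLF5, differed by 0.56 with G536S and by 0.44 with wild type from the empty vector.

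For the signals that induce KLF genes, 9 of 10 TGF-beta early genes were measured and 7 passed the filter. All 7 were below 0 with G536S against wild type, where 48.6% of all genes were, with differences from -1.16 to -0.01, and BHLHE40 was the only one 1.5-fold apart (1.81% of all genes were so much lower). After centring on the array medians 6 of the 7 were below 0. In the same comparison KLF10 differed by -0.44 and KLF11 by 0.75. Of the 7 glucocorticoid-linked genes 6 were measured and 4 passed. Of these, 2 were at least 1.5-fold lower with G536S than with the empty vector, PER1 and DUSP1, where 2.08% of all genes were. DUSP1 read 4.33 with G536S, 6.70 with wild type and 5.17 with empty vector, so that it was higher with wild type by 1.52. PER1, a clock gene, differed by -0.71, TSC22D3, a glucocorticoid-induced gene, was higher (0.41), and NR3C1, the glucocorticoid receptor gene, differed by -0.11, beside -0.41 for KLF9. Of the 22 other immediate early genes, 20 were measured and 17 passed. DUSP1 is also in the glucocorticoid list and JUNB in the TGF-beta list, so the lists are not separate. With G536S against wild type 15 of the 17 were below 0, and 4 were at least 1.5-fold lower (DUSP1, RHOB, JUN and FOSL1), where 1.81% of all genes were. The wild-type array was the high one for these 4. Quantile normalization or cyclic loess put 5 genes at that level. Against the empty vector, 6 of the 17 were at least 1.5-fold higher with wild type (5.42% of all genes), RHOB by 2.61 and JUN by 2.25. After quantile normalization or cyclic loess 5 were. With G536S, RHOB, JUN and FOSL1 were above the empty vector, by 0.36, 0.32 and 0.24, but 11 of the 17 were below 0 (36.1% of all genes). ATF3 was the 1 gene at least 1.5-fold higher with G536S (0.78, where 6.07% of all genes were), and with wild type it differed by 0.75. DUSP1 (-0.84), MYC (-0.79) and NR4A2 (-0.61) were at least 1.5-fold lower with G536S than with the empty vector, where 2.08% of all genes were. Quantile normalization put 4 genes at that level, and centring on the array medians 2. The median for G536S minus wild type was -0.25, and KLF6 at -0.99 lay between JUN (-1.93) and FOSL1 (-0.67). The immediate early list holds genes already known to differ between these arrays. The TGF-beta and glucocorticoid lists too were chosen with earlier results of these data known. Their counts beside the shares of all genes are therefore a description only.

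The genes most like a member were sought among 10080 protein-coding genes passing the filter, as the smallest Euclidean distance between the 3 values after each gene was centred on its own mean. With 3 arrays many genes lie close to any pattern, so the names are a description only. Nearest to KLF6 were CCND2 (distance 0.06), which encodes the G1 cyclin D2, the neuronal adhesion gene CNTN1 (0.07) and PRICKLE3 (0.11). CCND2 read 2.25 with G536S, 3.32 with wild type and 2.49 with empty vector. Nearest to KLF11 were LSM7, a subunit of an RNA-binding ring (0.02), NSDHL, an enzyme of cholesterol synthesis (0.03), and CAMKV (0.03). NSDHL read 4.46 with G536S, 3.74 with wild type and 4.10 with empty vector. Nearest to KLF10 were OLFM2 (0.01), TSSK3 (0.01) and GPR137 (0.01). Distances were not scaled to a gene's range, and more genes have ranges near that of KLF10 (0.44) than near that of KLF6 (0.99). The closer neighbours of KLF10 are therefore no finding about the gene.

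The sequences before the members' starts were set against all promoters of the same length. RefSeq gave 13 windows for 8 of the members, and KLF3 and KLF10 had none in the table used. A GC box lay in 8 of the 13 windows, against 42.6% of 35116 windows of all genes, and KLF9 was the only 1 of the 8 genes without one. Some of these genes have several windows, and no share per gene was computed. The 8 windows with a GC box were 69.2% to 80.4% G or C, against a median of 58.0% over all windows, and the part of base composition in this count was not tested. A CCAAT box lay in 6 windows (32% of all windows), a CACCC box (CCACCC) in 1 of KLF7 (31.3%), and a TATA box (TATAAA) in 1 of KLF5 (10.7%). The CRE of KLF11 is a motif that 1.65% of all windows hold, and the MEF2 site of KLF2 one that 2.8% hold. A CArG box, which serum response factor binds, lay before 1 start of KLF7 (1.16%). The AP-1 site (TGANTCA) was in 0 of the 13 windows and in 6.57% of all windows. All motifs were searched on both strands, overlapping matches were counted, and a match is a run of letters and not a measured binding site.

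**Figure D4:**
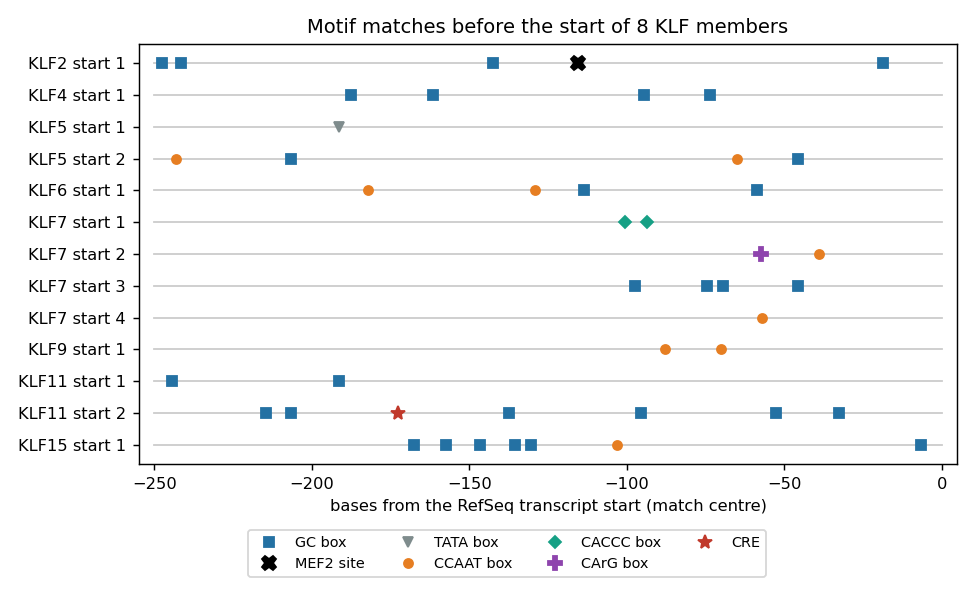
Centres of the motif matches (markers) in the 250 bases before each of the 13 RefSeq starts of 8 KLF members, by distance from the start in bases (x axis). GC boxes lie before 8 of the 13 starts, the CRE lies before the second start of KLF11, and the MEF2 site lies before the start of KLF2.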

How the data were processed

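Total RNA of 3 cultures was measured on 1 Affymetrix array each, per the labels' protocols. The authors deposited log2 intensities, 1 per probe set and array, which they made with RMA (background correction, normalization between arrays and probe summary), per the submitters' processing notes. Neither the RMA version nor the genome build is given in the sources used here. Base 2 was inferred from the highest value, 12.57, which exceeds 11.09, the natural log of the top of a 16-bit scanner.

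Of 53617 probe sets, 25713 are annotated, 23871 of them with 1 gene, 1842 with several and 27904 unnamed here. Symbols were updated through the Entrez ID in RefSeq's GRCh38.p14 table (22572 matched, 1299 kept the older symbol). The highest-mean probe set stood for a gene. Counts used 11198 genes at or above the median gene mean. All 10 members and TRAF7 are named, with listed genes at least 1.5-fold apart, listed genes given for context, which were chosen after their values were seen, and for the 3 passing members with the largest range the 3 nearest protein-coding genes. The members and lists were chosen with earlier results of these data known. Promoter sequences are RefSeq's, of build GRCh38.p14. The gene table and counts were tested on simulated data. limma 3.58.1 (R 4.3.3) was used for the quantile and cyclic loess alternatives. Other steps used Python 3.11.15, numpy 2.4.6, pandas 2.3.3 and matplotlib 3.10.9. Precision is limited by the number of arrays, 1 per group.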

Additional observations from a re-analysis of the deposited data

Results flagged for a closer look

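Of the 8 KLF members that passed the filter, 3 lay on opposite sides of the empty vector array with the 2 forms of TRAF7, where 25.6% of the 11198 genes did. KLF6 differed from the empty vector by -0.17 with G536S and by 0.83 with wild type. KLF10 differed by -0.30 with G536S and by 0.15 with wild type. KLF11 differed by 0.40 with G536S and by -0.36 with wild type. Both differences of a gene share the empty vector array, and the difference between the forms was not tested, since each group has 1 array. Under 3 other scalings KLF6, KLF10 and KLF11 kept these signs, but the wild-type difference of KLF10 shrank to 0.02 after quantile normalization and 0.03 under cyclic loess.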

How the results depend on the processing

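Each of the 30 member differences was recomputed with 3 other scalings (quantile normalization, centring on the array median and cyclic loess), and none crossed the 1.5-fold level. Averaging a gene's probe sets and a floor at 0.86, the 25th percentile of all values, could not move a member, since each has 1 probe set and all their values lie above the floor. KLF6 ranged from 0.71 to 0.85 for wild type minus empty vector and from -1.02 to -0.99 for G536S minus wild type, and KLF11 from 0.74 to 0.76 for G536S minus wild type. KLF10 ranged from 0.02 to 0.17 for wild type minus empty vector. Signs turned for KLF7 (G536S minus empty vector, above) and for KLF9 (wild type minus empty vector, 0.02 after median centring). The counts of members 1.5-fold apart did not change in any of these settings, with no filter, or with a filter at the 75th percentile of gene means (2.87).

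For G536S minus empty vector, the member median became -0.28 after quantile normalization, -0.25 under cyclic loess and -0.049 with no filter. The median of all genes became -0.030, -0.0062 and -0.0047 in the same order. With no filter, 5 of the 10 members were above 0 and 5 below. For wild type minus empty vector, the member median turned to -0.074 after quantile normalization and -0.047 with cyclic loess, and was 0.18 with no filter, and that of all genes -0.024 after quantile normalization. For G536S minus wild type the member median was -0.37 with the filter at the 75th percentile, which leaves fewer members.

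Genes 1.5-fold higher and lower with G536S than with the empty vector numbered 680 and 233, and became 353 and 498 after quantile normalization (41.5% higher, against 74.5%), 389 and 442 under cyclic loess (46.8%), and 366 and 133 at the higher filter. With wild type they numbered 607 and 201, and became 347 and 383 (47.5%, against 75.1%), 366 and 347 (51.3%), and 312 and 88. Between G536S and wild type the higher filter left 122 and 99 of 243 and 203, since it tests fewer genes. The cause of the shifts with scaling was not tested. No paired analysis was possible because each group has 1 array and the labels give no replicate numbers.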
